A study of Mus musculus with 8 samples.

Results

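The thin filament of the sarcomere is a polymer of actin whose length and stability are set by proteins that cap its slow-growing pointed end, add actin there, run along it or protect these proteins from degradation. Of the 22880 genes listed for each mouse, 10 with such roles are described here. They were chosen by gene symbol and comprise the tropomodulins Tmod1, Tmod3 and Tmod4, the leiomodins Lmod2 and Lmod3, the nebulin family genes Neb, Nebl and Nrap, and the Kelch genes Klhl40 and Klhl41. Each of the 10 symbols matched exactly 1 listed gene, and all 10 passed the filter on low counts. RNA was sequenced from the soleus, a calf muscle rich in slow fibres, from male C57BL/6 mice (substrain J per the study's methods) at 2 months of age, 4 controls (Dnm2 +/+) and 4 mice heterozygous for a point mutation in dynamin 2 (Dnm2 +/K562E). The mutation was introduced into the germ line by homologous recombination, so that it is present in every tissue, and a LoxP site remains in a neighbouring intron. Dynamin 2 is a GTPase that cuts vesicles from membranes, and the comparison asked how the mutation alters the transcripts of this muscle. In bulk muscle a lower transcript level cannot be told apart from a smaller share of the cells that make it.

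Tropomodulins cap the pointed end. Tmod1 is known from heart, skeletal muscle and red blood cells, Tmod3 from many cell types and Tmod4 from skeletal muscle. Leiomodins are their relatives that nucleate actin and favour elongation at the same end. Nebulin, the product of Neb, is a giant protein that runs along the thin filament, nebulette (Nebl) is its smaller relative best known from the heart, and Nrap anchors actin in forming myofibrils and at the ends of the muscle fibre. Klhl40 and Klhl41 are muscle Kelch proteins, and Klhl40 is known to keep leiomodin 3 and nebulin stable. In humans, loss of NEB, LMOD3, KLHL40 or KLHL41 causes nemaline myopathy, in which rods form in the fibres.

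The 8 libraries held 33407430 to 48832814 counted reads each, and no 2 mice of a genotype agreed within sampling noise (chi-square over its degrees of freedom at least 12.6). Levels are given as normalized CPM, the reads of a gene relative to the library total scaled by a TMM factor, which was 0.9145 to 0.9594 for the controls against 1.037 to 1.103 for Dnm2 +/K562E mice. The total level of Dnm2, with both alleles counted together, was 59.2 to 68.8 CPM in controls and 70.3 to 76.1 CPM in Dnm2 +/K562E mice (edgeR quasi-likelihood adjusted p = 0.0909). This count cannot distinguish the mutant from the wild-type allele. As for the tissue, the heart genes Nppa (0 to 6 reads) and Myl7 (0 to 1 read) were at or near 0 in every mouse. Nppb had 0 reads in each control and 14 to 21 reads in each Dnm2 +/K562E mouse, Tnni3 and Ryr2 had 11 to 46 reads per mouse, and the heart myosin gene Myh6 was at 42.6 to 59.9 CPM in every mouse. The slow myosin gene Myh7 was at a mean of 6014 CPM in controls.

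Among the 10 genes, 3 were higher (Tmod1, Klhl40 and Klhl41) and 5 lower (Tmod4, Lmod2, Lmod3, Neb and Nrap) in Dnm2 +/K562E soleus when Benjamini-Hochberg adjusted p-values under 0.05 were called (quasi-likelihood test of edgeR, 14001 genes tested), while the signs of Neb and Lmod2 turned when libraries were scaled to fibre genes, and that of Lmod3 when Des was left out of those. Over all tested genes, 22.2% were higher and 21.7% were lower by the same rule, so that a share called in either direction of 43.8% is the background for these 8 of 10. With a log2 fold change of at least 0.58 also required, 2 genes were higher (background 12.9%) and 2 lower (background 7.85%). In 7 of the 10 genes the 4 Dnm2 +/K562E mice lay entirely outside the range of the 4 controls, compared with 41.2% of all tested genes. Of these, 4 lay below the controls (background 20.5%) and 3 above them (background 20.6%). The median log2 fold change was -0.10 over the 10 genes and 0.01 over all tested genes.

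**Figure D1:**
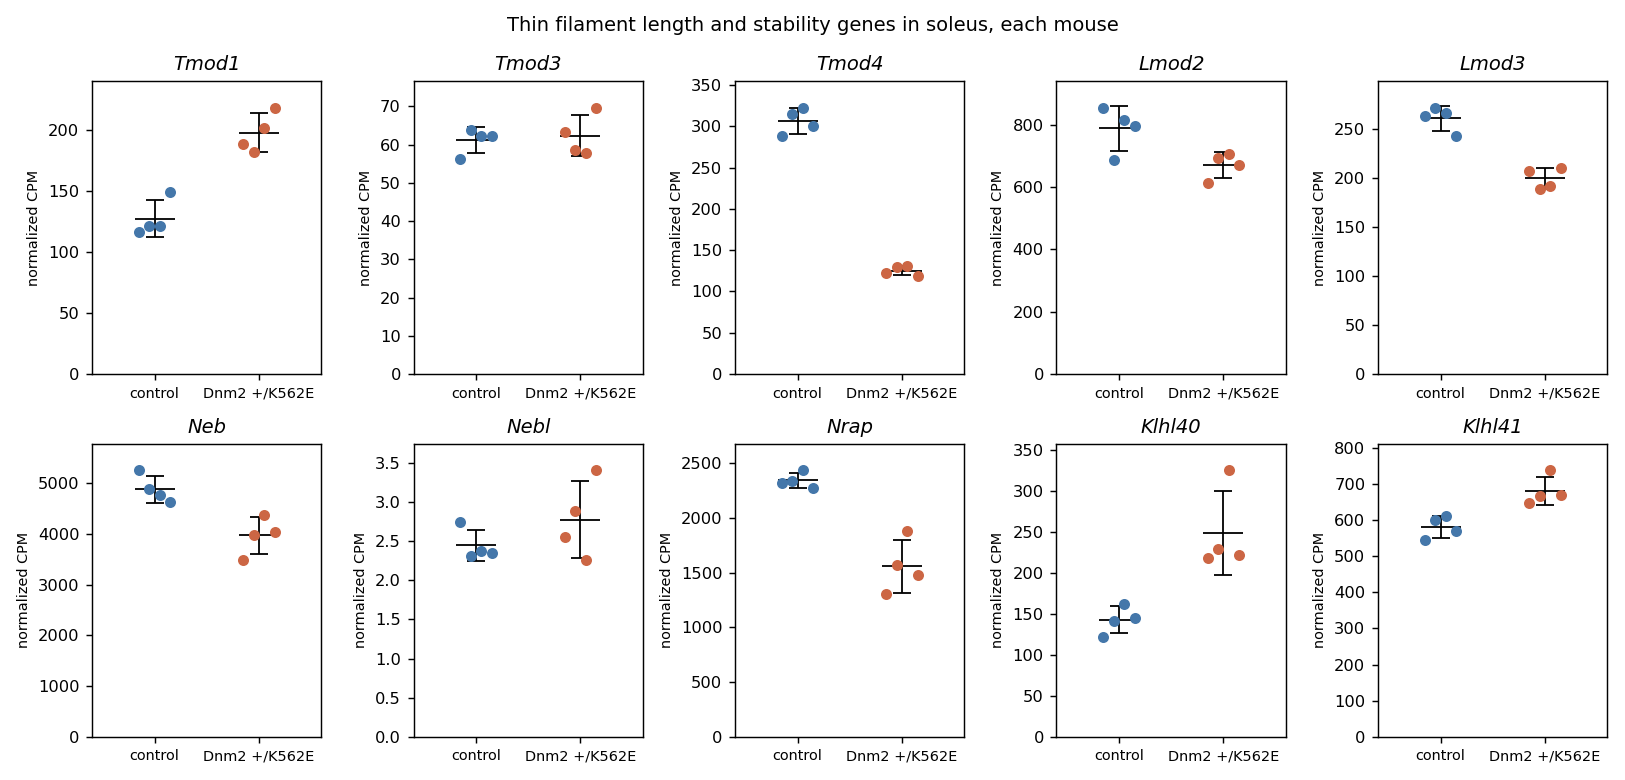
Normalized CPM (vertical axes, from 0) of the 10 genes in each of 4 control and 4 Dnm2 +/K562E mice, with 1 point per mouse, the mean as a horizontal line and the SD as bars. Tmod4 lies between 118.7 and 130.7 CPM in the mutant mice, below every control, and Tmod1 between 182.4 and 218.7 CPM, above every control.

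The tropomodulin genes went in different directions. Tmod4 (chromosome 3, 95124476 to 95129209, GRCm38) was at 287.9, 314.2, 322.4 and 300.7 CPM in controls 1 to 4 and at 122.4, 129.7, 130.7 and 118.7 CPM in Dnm2 +/K562E mice 1 to 4. Every mutant mouse was far below every control. Its log2 fold change was -1.29 (SE 0.06, edgeR quasi-likelihood adjusted p = 2.81e-07), so that its level fell by 59.1%. Tmod1 (chromosome 4, 46038935 to 46116032) was at 116.9, 121.5, 121.9 and 149.9 CPM in controls and at 188.9, 182.4, 201.9 and 218.7 CPM in Dnm2 +/K562E mice. All mutant mice were above all controls, and control 4 stood above the other controls. The log2 fold change of Tmod1 was 0.63 (SE 0.09, edgeR quasi-likelihood adjusted p = 2.12e-04), a rise of 55.2%. The merged exons of Tmod1 overlap those of Tstd2, a gene on the other strand, over 32.6% of their length, and it is not stated whether reads were assigned by strand. Tstd2 was at 13.3 ± 2.24 in controls and 13.6 ± 0.551 CPM (SD, n = 4 each) in Dnm2 +/K562E mice. The summed level of the 5 tested genes of red blood cells, a cell type known to use Tmod1, was 524.5 to 894.4 CPM in controls and 247.7 to 516.5 CPM in Dnm2 +/K562E mice. Their part in the level of Tmod1 was not tested.

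Tmod3 (chromosome 9, 75497707 to 75559657), which caps actin in many cell types, was at 56.2, 63.9, 62.2 and 62.2 CPM in controls and at 63.3, 58.6, 57.8 and 69.7 CPM in Dnm2 +/K562E mice. The genotypes overlapped, and the log2 fold change of 0.03 had a 95% interval from -0.14 to 0.19 (edgeR quasi-likelihood adjusted p = 0.785). Markers of other cells moved between the genotypes at the same time. The summed level of 7 macrophage genes rose from 72.8 to 135.5 CPM in controls to 179.3 to 295.6 CPM in Dnm2 +/K562E mice, and that of 7 fibroblast genes from 2557 to 3862 CPM to 6079 to 7999 CPM. All 14 genes were called higher, beside 22.2% of all tested genes. The summed level of 5 endothelial genes fell from 921.1 to 967.8 CPM in controls to 650.7 to 750.7 CPM in Dnm2 +/K562E mice. That of 5 smooth muscle genes fell from 395.5 to 534.3 CPM to 270.6 to 308.6 CPM. Each gene of these 2 lists was called lower, beside 21.7% of all tested genes. The part of these cells in the level of Tmod3 was not tested.

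The leiomodin genes were both lower. Lmod3 (chromosome 6, 97238534 to 97252759) was at 263.0, 271.7, 266.8 and 242.8 CPM in controls and at 207.6, 189.2, 191.6 and 210.5 CPM in Dnm2 +/K562E mice. The genotypes did not overlap, and the log2 fold change was -0.39 (SE 0.06, edgeR quasi-likelihood adjusted p = 5.12e-04), which became -0.08 (edgeR quasi-likelihood adjusted p = 0.469) when libraries were scaled to fibre genes. Lmod2 (chromosome 6, 24597762 to 24605414), the leiomodin best known from the heart, was at 855.1, 687.9, 815.5 and 794.7 CPM in controls and at 612.6, 693.6, 707.6 and 670.5 CPM in Dnm2 +/K562E mice. Control 2 lay among the mutant mice, so that the genotypes overlapped. The log2 fold change of -0.23 (SE 0.08, edgeR quasi-likelihood adjusted p = 0.0331) lost its call without control 1 (adjusted p = 0.0663), without control 3 (0.0759) and without Dnm2 +/K562E mouse 1 (0.0881), 2 (0.0517) or 4 (0.0615). The call was also lost with upper-quartile factors (-0.20, adjusted p = 0.0707), with library size alone (-0.02, adjusted p = 0.833) and with a replicate block (adjusted p = 0.0704 and 0.0772, by 2 numberings of the mice), and the log2 fold change was 0.07 when libraries were scaled to fibre genes.

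In the nebulin family, Nrap fell most. Nrap (chromosome 19, 56320035 to 56390037) was at 2322, 2342, 2434 and 2276 CPM in controls and at 1302, 1571, 1881 and 1481 CPM in Dnm2 +/K562E mice. No mutant mouse reached the controls, and the mutant mice were more spread (SD 242.6 against 66.5 CPM). The log2 fold change was -0.59 (SE 0.10, edgeR quasi-likelihood adjusted p = 7.77e-04), just past the fold threshold. Without Dnm2 +/K562E mouse 1 it was -0.51 and without mouse 3 it was -0.69. Exons of Nrap overlap those of Habp2 on the other strand over 4.87% of their length, and Habp2 did not pass the filter on low counts.

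Neb (chromosome 2, 52136647 to 52378474, merged exons of 26582 bases) had the most reads of the 10 genes, from 128734 to 212651 per mouse. It was at 5258, 4898, 4763 and 4642 CPM in controls and at 3496, 3976, 4382 and 4042 CPM in Dnm2 +/K562E mice. All mutant mice were below all controls, although mutant mouse 3 came close to control 4. The log2 fold change was -0.30 (SE 0.08, edgeR quasi-likelihood adjusted p = 0.0121), which became -0.09 (edgeR quasi-likelihood adjusted p = 0.307) with library size alone and 0.00262 (edgeR quasi-likelihood adjusted p = 0.975) with scaling to fibre genes. Nebl (chromosome 2, 17343909 to 17731464) had only 78 to 126 reads per mouse. Its level was 2.74, 2.32, 2.37 and 2.36 CPM in controls and 2.55, 2.88, 2.27 and 3.41 CPM in Dnm2 +/K562E mice, and the genotypes overlapped. A log2 fold change of 0.18 with a 95% interval from -0.21 to 0.57 (edgeR quasi-likelihood adjusted p = 0.431) did not pass the test, and its interval was the widest of the 10 genes.

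The Kelch genes were both higher. Klhl40 (chromosome 9, 121777607 to 121783818) was at 121.5, 141.8, 161.8 and 145.5 CPM in controls and at 217.7, 229.7, 325.1 and 222.4 CPM in Dnm2 +/K562E mice. The genotypes did not overlap, and mutant mouse 3 stood well above the other mutant mice. The log2 fold change was 0.80 (SE 0.13, edgeR quasi-likelihood adjusted p = 6.26e-04), a rise of 74.3%, and it was 0.65 (edgeR quasi-likelihood adjusted p = 4.67e-04) without that mouse. Klhl41 (chromosome 2, 69670120 to 69684230) was at 544.7, 599.8, 610.2 and 568.5 CPM in controls and at 646.6, 667.9, 737.6 and 670.7 CPM in Dnm2 +/K562E mice, again without overlap. Its rise was smaller, with a log2 fold change of 0.23 (SE 0.06, edgeR quasi-likelihood adjusted p = 0.0144). Of the 31-base stretches of Klhl40, 20.6% also occur in Gm47108, a gene model on the other strand that was not among the counted genes.

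Because TMM, like any scaling, sets which level counts as unchanged, the fold changes were also expressed relative to fibre genes. With library size alone the median over all tested genes (log2) shifted from 0.01 to 0.22, and with scaling to 8 fibre reference genes, such as the titin gene Ttn, the actin gene Acta1 and the desmin gene Des, it shifted to 0.32. The higher and lower calls over all genes went from 3103 and 3036 to 5608 and 1504 with library size alone, and to 6502 and 997 with scaling to fibre genes, which is 40.1% and 10.7%, and 46.4% and 7.12%, of the tested genes. Among the 10 genes, 4 were higher and 3 lower with library size alone, and 5 were higher (Tmod1, Tmod3, Nebl, Klhl40 and Klhl41) and 2 lower (Tmod4 and Nrap) relative to fibre genes. Relative to fibre genes the log2 fold changes were 1.1 for Klhl40, 0.93 for Tmod1, 0.53 for Klhl41, -0.29 for Nrap and -0.98 for Tmod4, whereas Neb, Lmod2 and Lmod3 lay between -0.08 and 0.07. Of the 8 reference genes, 7 were lower and Des was higher at a log2 fold change of 0.72. Without Des in the reference, a variant chosen after its rise was seen, Tmod4 was at -0.84 and remained lower, Nrap at -0.14 was no longer past the test (adjusted p = 0.128), Neb was at 0.15 (adjusted p = 0.0568) and Lmod2 was higher at 0.22 (adjusted p = 0.0251, all by the edgeR quasi-likelihood test). By this reference 6 of the 10 genes were higher and 1 lower, where 62.4% and 4.39% of all tested genes were.

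**Figure D2:**
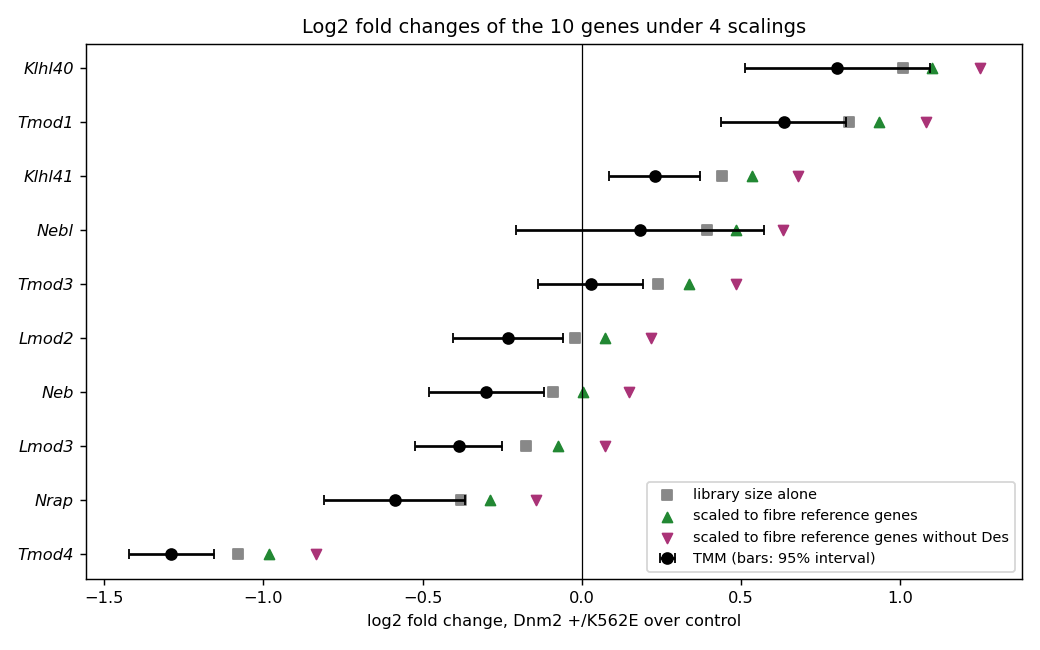
Log2 fold change (horizontal axis, Dnm2 +/K562E over control) of the 10 genes under TMM (black, bars are 95% intervals) and under 3 other scalings. Each scaling moves all genes by nearly the same amount, so that Tmod4 stays below 0, Tmod1, Klhl40 and Klhl41 stay above 0, and Neb (-0.30 with TMM, 0.00262 relative to fibre genes), Lmod2 and, without Des, Lmod3 cross 0.

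The ratio of 2 genes within a mouse does not depend on the scaling, and 6 pairs were compared by exact two-sided permutation tests, which with 4 mice in each group cannot give a p below 0.0286. The log2 ratio of Tmod1 to Tmod4 reads was -1.30, -1.37, -1.40 and -1.004 in controls and 0.63, 0.49, 0.63 and 0.88 in Dnm2 +/K562E mice. It was negative in every control and positive in every Dnm2 +/K562E mouse, a 3.80-fold shift (difference 1.93, exact permutation p = 0.0286, adjusted over 6 pairs 0.0429). Per length of merged exon, Tmod1 was at 0.165 to 0.217 of the level of Tmod4 in controls and at 0.612 to 0.802 in Dnm2 +/K562E mice. By this measure Tmod4 stayed above Tmod1 in every mouse. The measure depends on the merged exons of Tmod1, of which 32.6% overlap Tstd2. Which of the 2 transcripts was the more abundant in Dnm2 +/K562E mice is therefore not settled. The pairs Tmod3 and Tmod4, Klhl40 and Klhl41, and Nrap and Neb were also without overlap, each at the same exact permutation p of 0.0286 (adjusted 0.0429). The log2 ratio of Tmod3 to Tmod4 rose by 1.31, from -2.32 ± 0.048 to -1.01 ± 0.189 (SD, n = 4 each). That of Klhl40 to Klhl41 rose by 0.56, from -2.03 ± 0.112 to -1.47 ± 0.194, and that of Nrap to Neb fell by 0.30, from -1.06 ± 0.0888 to -1.36 ± 0.104 (SD, n = 4 each). Thus the members of these pairs changed unequally. The pairs were chosen with earlier results of these data known. Their p-values are therefore not separate support for the changes of the single genes. The log2 ratio of Lmod2 to Lmod3, at 1.59 ± 0.173 and 1.75 ± 0.158 (SD, n = 4 each), overlapped between the genotypes (exact permutation p = 0.257), and so did that of Nebl to Neb (difference 0.47, exact permutation p = 0.0571, adjusted 0.0686).

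**Figure D3:**
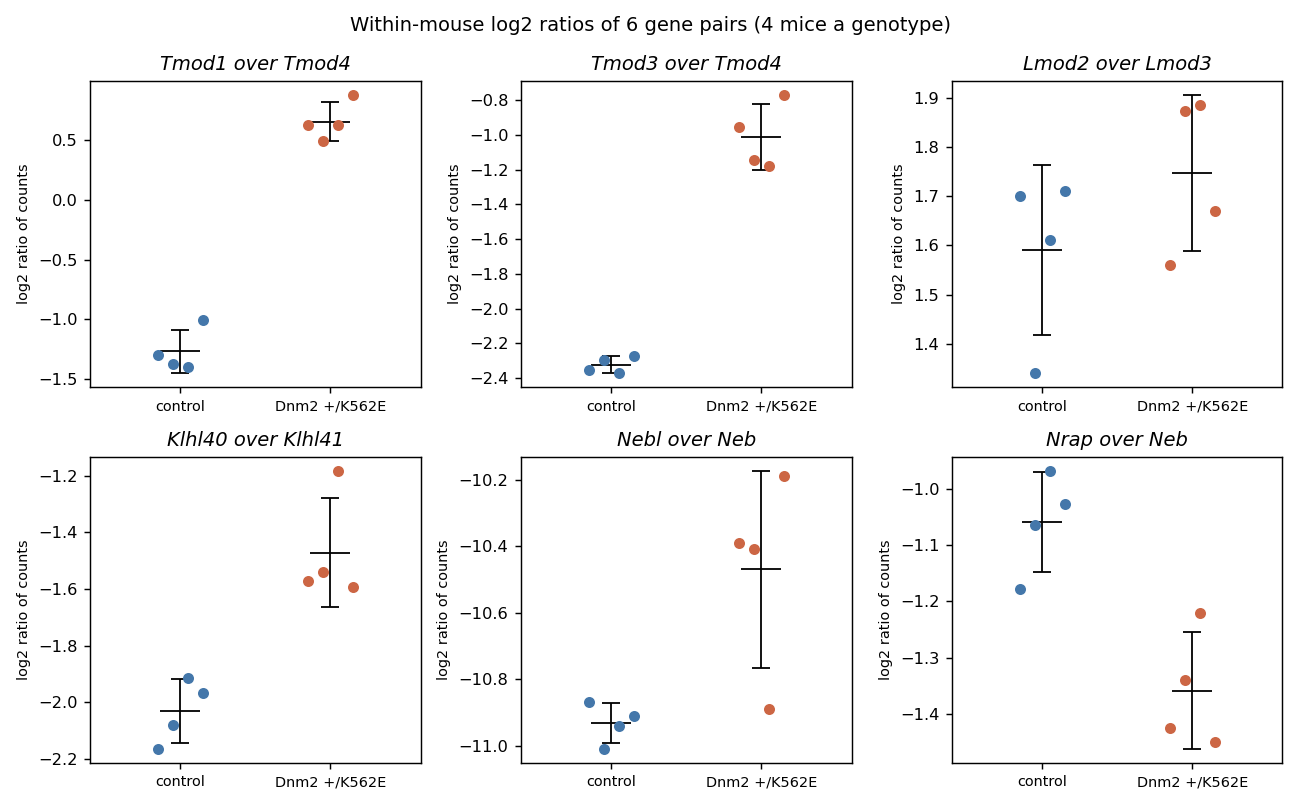
Log2 ratio of the reads of 2 genes within each mouse (vertical axes, which do not start at 0), with 1 point per mouse, the mean as a horizontal line and the SD as bars. The Tmod1 to Tmod4 ratio lies between -1.40 and -1.004 in controls and between 0.49 and 0.88 in Dnm2 +/K562E mice.

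Levels of different genes were compared per kilobase of merged exon. In controls the order of the mean levels was Nrap (425.5 CPM per kb), Lmod2 (398.9), Klhl41 (229.7), Neb (184), Tmod4 (178.4), Lmod3 (117.8), Klhl40 (57.0), Tmod1 (32.3), Tmod3 (5.48) and Nebl (0.161). The ranges over mice of the neighbours Nrap and Lmod2, and of Neb and Tmod4, overlapped, and those of the other neighbours did not. In Dnm2 +/K562E mice the order was Lmod2 (339.6 CPM per kb), Nrap (283.0), Klhl41 (269.1), Neb (149.5), Klhl40 (99.5), Lmod3 (90.2), Tmod4 (73.0), Tmod1 (50.2), Tmod3 (5.59) and Nebl (0.182). Here the neighbours Lmod2 and Nrap, Nrap and Klhl41, and Klhl40 and Lmod3 overlapped. Tmod4, whose range overlapped that of Neb in controls, was thus below Klhl40 and Lmod3 in every mutant mouse. Merged exons join all annotated transcripts of a gene, whichever of them the muscle uses.

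**Figure D4:**
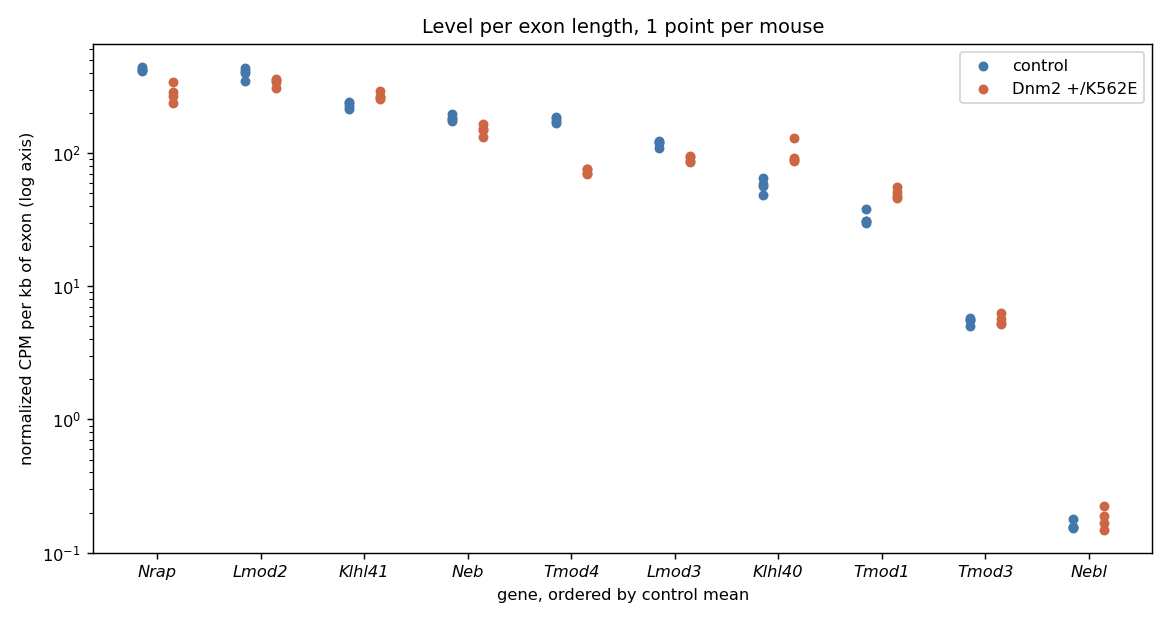
Normalized CPM per kilobase of merged exon (vertical log axis) for the 10 genes, ordered by control mean, with 1 point per mouse. Tmod4 moves from 167.7 to 187.8 in controls to 69.1 to 76.1 in Dnm2 +/K562E mice, while Tmod3 and Nebl, the genes of lowest level, overlap between genotypes.

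The promoters of 4 genes are shown because Klhl40 and Klhl41 rose together, whereas Tmod4 and Nrap had the largest falls. RefSeq windows of GRCm38.p6 were matched for 7 of the 10 genes, and Tmod3, Lmod3 and Neb were not matched. The bases lie before the annotated start and outside the exons of the gene in GENCODE M21. Capitals mark matches to the E-box CAGCTG or to the binding motif of the muscle factor MEF2.
Klhl41 (chr2:69669870-69670119, plus strand): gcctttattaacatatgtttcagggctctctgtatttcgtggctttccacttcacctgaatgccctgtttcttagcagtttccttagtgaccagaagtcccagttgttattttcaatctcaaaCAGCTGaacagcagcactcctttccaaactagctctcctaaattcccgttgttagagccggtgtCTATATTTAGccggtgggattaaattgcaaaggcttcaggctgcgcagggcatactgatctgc
Klhl40 (chr9:121777357-121777606, plus strand): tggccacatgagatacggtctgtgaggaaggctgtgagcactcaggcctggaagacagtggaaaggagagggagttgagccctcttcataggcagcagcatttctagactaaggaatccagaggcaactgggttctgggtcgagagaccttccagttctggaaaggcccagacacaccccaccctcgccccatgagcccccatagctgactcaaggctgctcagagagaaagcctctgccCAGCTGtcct
Nrap (chr19:56390039-56390288, minus strand): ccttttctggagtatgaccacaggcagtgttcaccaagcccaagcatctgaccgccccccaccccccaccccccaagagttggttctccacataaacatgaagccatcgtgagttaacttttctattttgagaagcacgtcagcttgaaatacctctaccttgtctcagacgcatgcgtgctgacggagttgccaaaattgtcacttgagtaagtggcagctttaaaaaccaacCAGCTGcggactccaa
Tmod4 (chr3:95124264-95124475, plus strand): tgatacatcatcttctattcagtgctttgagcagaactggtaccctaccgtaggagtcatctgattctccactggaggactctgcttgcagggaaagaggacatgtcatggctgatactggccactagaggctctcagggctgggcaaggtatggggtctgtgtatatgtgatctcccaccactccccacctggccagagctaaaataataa
The windows of 250 bases before the start were searched on both strands for the E-box CAGCTG (which reads the same on both), the MCAT motif CATTCC, the nuclear receptor motif AAGGTCA, the TATA box TATAAA, the CArG box and the MEF2 motif. CAGCTG occurred in the windows of Klhl41 (bases 127 to 122 before the start), Klhl40 (bases 10 to 5) and Nrap (bases 16 to 11), and in 13% of all 32851 windows. Klhl40 and Klhl41, which rose, and Nrap, which fell, thus share it. The MEF2 motif occurred only in the window of Klhl41 (bases 63 to 54), and in 2.92% of all windows. CATTCC was found in windows of Tmod1 and Nebl (12.6% of all windows) and the CArG box in a window of Nebl (1.47%), while AAGGTCA (4.08%) and TATAAA (12.4%) were in no window of the 7 matched genes. None of the 6 motifs was found in the windows of Tmod4 and Lmod2.

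The other genes of the thin filament were mostly lower. Of the 11 genes for actin, tropomyosin and troponin, 9 were called lower by the same rule, and Tnni1 (-0.15) and Actc1 (0.35) did not pass the test. The median log2 fold change of the list was -0.52. Over this list and the other 3 lists of thin filament genes, 23 genes were lower and 6 higher with TMM, 14 and 15 relative to fibre genes, and 7 and 19 without Des among those. Of all tested genes, 21.7% were lower and 22.2% higher with TMM, 7.12% and 46.4% relative to fibre genes, and 4.39% and 62.4% without Des. The 4 lists hold 44 genes. After TMM scaling, the fast troponin genes Tnnc2, Tnni2 and Tnnt3 had log2 fold changes of -0.69, -0.70 and -0.69, and the tropomyosin gene Tpm2 of -0.61. Of these, Tnnc2 went from 4031 ± 115.9 to 2507 ± 230.3 CPM (SD, n = 4 each; edgeR quasi-likelihood adjusted p = 4.36e-05).

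Among 7 relatives of the same families, Tmod2 was higher and Lmod1, Klhl31, Kbtbd13 and Kbtbd12 were lower. Lmod1 is also in the list of 5 smooth muscle genes, all of which were lower. Of all tested genes, 22.2% were higher and 21.7% lower. Tmod2, a tropomodulin known from neurons, rose from 17.5 ± 1.87 to 42.8 ± 3.52 CPM (SD, n = 4 each), a log2 fold change of 1.29 (SE 0.09, edgeR quasi-likelihood adjusted p = 2.50e-06). Kbtbd13, whose human counterpart is mutated in a nemaline myopathy, fell from 29.9 ± 7.13 to 11.7 ± 0.992 CPM (SD, n = 4 each), a log2 fold change of -1.36 (edgeR quasi-likelihood adjusted p = 7.85e-05). Klhl31, another muscle Kelch gene, had a log2 fold change of -0.73, opposite in sign to Klhl40 and Klhl41. Kbtbd12 was at -0.55, while Lasp1 and Klhl30 did not pass the test.

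A list of 16 genes held those that act at the other, barbed end, at the Z-disc or in actin turnover. Of these, 8 were lower (21.7% of all tested genes), 1 was higher (22.2%) and 7 did not pass the test, with a median of -0.20. Myoz1, a Z-disc protein of fast fibres, had a log2 fold change of -1.56 (edgeR quasi-likelihood adjusted p = 1.29e-06), and Myoz2 and Ldb3 were at -0.68 and -0.57. Xirp2, an actin-binding repeat protein, rose from 1381 ± 57.2 to 2680 ± 259.9 CPM (SD, n = 4 each; edgeR quasi-likelihood adjusted p = 5.68e-06). Of the subunits of the barbed-end capping protein, Capza2 was lower (-0.35), whereas Capza1 (0.10) and Capzb (-0.04) did not pass the test. Among 10 genes of actin nucleation and assembly, 4 were higher (Wipf1 at 0.75, Gsn at 0.74, Pfn1 at 0.39 and Cap1 at 0.33), and 2 were lower (the formin gene Fhod3 at -0.54 and Pfn2 at -0.37), beside 22.2% and 21.7% of all tested genes. Genes of this list are also used by other cells of the muscle. Macrophage and fibroblast markers were higher and endothelial and smooth muscle markers lower, as given above. The part of these cells was not tested.

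**Figure D5:**
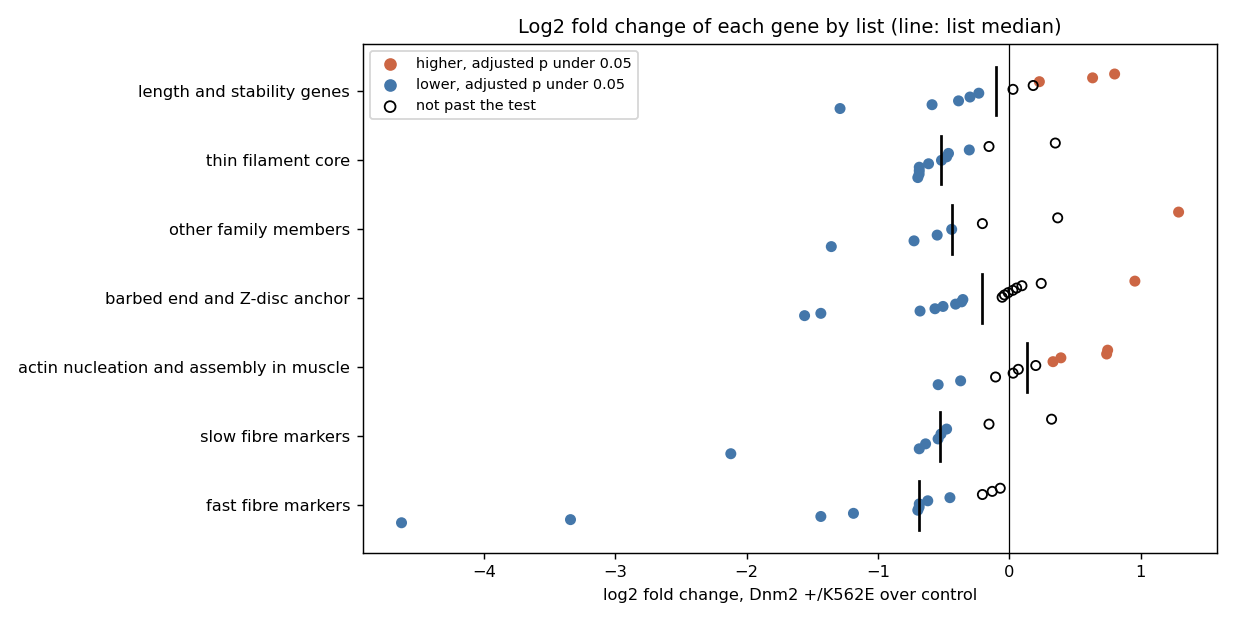
Log2 fold change (horizontal axis, TMM, Dnm2 +/K562E over control) of each gene in 7 lists, filled where the adjusted p was under 0.05, with a vertical line at each list median. The thin filament core lies mostly below 0 (median -0.52), whereas the length and stability genes spread from -1.29 to 0.80.

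Fibre markers were mostly lower too. The fast and slow lists share troponin genes and Actn3 with the lists above, so part of this repeats the same genes. The summed level of 12 fast fibre genes was 47780 to 51310 CPM in controls and 30350 to 35740 CPM in Dnm2 +/K562E mice, with 9 lower. That of 8 slow fibre genes was 19810 to 23380 and 11780 to 14730 CPM, with 6 lower. Of all tested genes, 21.7% were lower. These calls were made with TMM scaling. Among the fast genes, control 4 stood above the other controls for Myh4 (3134 against 162.8 to 426.4 CPM), Pvalb (946.1 against 341.5 to 469.1 CPM) and Actn3 (757.7 against 235.9 to 389.2 CPM). It was also the highest control for Atp2a1, Myl1 and Casq1. For Myh1, Myh2, Tnni2 and Tnnc2 it was the lowest control, and for Mylpf and Tnnt3 it lay in between. The same mouse had the highest Tmod1 of the controls, while its Tmod4 lay within the range of the other controls. Control 4 was also the highest control for the summed macrophage (135.5 CPM) and fibroblast genes (3862 CPM). It was the lowest for the summed slow fibre (19810 CPM) and endothelial genes (921.1 CPM). The fast calcium pump gene Atp2a1 (log2 fold change -1.19, adjusted p = 1.05e-06) and the slow light chain gene Myl3 (-2.12, adjusted p = 7.36e-06, both edgeR quasi-likelihood test) were among the genes called lower. Of 7 genes of developing and regenerating fibres, 4 were higher (Myh3, Myl4, Tnnt2 and Myog), beside 22.2% of all tested genes. The sum of the 7 genes rose from 100.9 to 116.0 CPM to 620.2 to 886.5 CPM. The part of these shifts in the levels of the thin filament genes was not tested.

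For each gene past the test, the tested genes with the most similar profile were found as those with the smallest root mean square difference, over the 8 mice, of log2 CPM after subtraction of the control mean. The nearest to Tmod4 were Plpp7 (0.0854), Atp2a1 (0.087) and Fam213a (0.0879), and the nearest to Tmod1 were Brms1 (0.0728), Dexi (0.074) and Cyth3 (0.0751). Those nearest to Nrap were Kdm8 (0.0442), Syne2 (0.0444) and Pigp (0.0688), and those nearest to Klhl40 were Il17d (0.0912), Gss (0.115) and Zswim4 (0.15). For Klhl41 they were Akr1a1, Usp4 and Sssca1, for Neb they were Ngrn, Ly6c1 and Rps27rt, for Lmod3 they were Akr1b10, Mrpl46 and Emc6, and for Lmod2 they were Fuk, Ak3 and Nsmce4a. None of the nearest genes was another of the 10. With 8 mice in 2 separate groups, this measure mainly ranks genes by the size of the genotype difference.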

How the data were processed

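Reads from soleus muscle of 4 control and 4 Dnm2 +/K562E mice were trimmed by the authors with Trimmomatic (0.33), aligned with STAR (2.5.1b) to GRCm38.p5 and counted per Ensembl gene with featureCounts. The authors deposited these counts per mouse without normalization. Alignments of a mapping quality under 10 were left out, only the primary alignment of a multi-mapping read was used, and overlapping genes share reads because each received them. The strand setting is not given in the sources used here. Libraries were made with a total RNA kit per the labels, but from poly A-enriched RNA per the paper's methods.

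Of 22880 gene IDs, 22647 were matched to GENCODE M21 (GRCm38). Low counts were filtered in edgeR 4.0.16 (filterByExpr, count of at least 10 and total of at least 15), and the remaining 14001 genes were scaled by TMM and tested with the quasi-likelihood test in R 4.3.3, with Benjamini-Hochberg adjustment over all of them. The study's own test, the exact test of edgeR, was an alternative. Standard errors are those implied by the F statistic. Within-mouse log2 ratios used raw counts plus a prior count of 2 and exact permutation tests (scipy 1.17.1). Alternatives were DESeq2 1.42.0, other scalings and filters, a replicate block and leaving out each mouse. The script was tested on simulated data. All 10 members are named, with up to 4 genes of each list by smallest p. Myh1, Myh2, Myl1, Mylpf, Casq1, Myh4, Actn3, Myh6, Tnni3, Ryr2, Nppa, Nppb, Myl7, Gsn, Pfn2, Capza1, Capza2, Capzb, Lmod1, Lasp1, Klhl30, Tnni1 and Actc1 and the higher developmental genes were named after their values were seen, to complete a count or a check. The members, pairs and lists were chosen with earlier results of these data known. 1 gene of the fibre reference list entered that scaling and the list counts and is otherwise not reported here.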

Additional observations from a re-analysis of the deposited data

Results flagged for a closer look

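Some samples lay apart from the other 3 mice of their genotype, by a gap to the nearest mouse that exceeded Dixon's 95% critical value for 4 samples. Of 86 groups of 4 mice examined in this way, 9 met this rule, and chance gives about 1 in 20. Among the thin filament genes these were Tmod1 in control 4 (150 CPM against 121.9 in the next control), Nebl in control 1 (2.74 CPM) and Klhl40 in Dnm2 +/K562E mouse 3 (325 CPM against 229.7 in the next). The Klhl40 to Klhl41 log2 ratio of the same mutant mouse was -1.18. The others were Dnm2 in control 3 (59.2 CPM), Kbtbd12 in control 1 (13.9 CPM), Cap1 in control 4 (58.7 CPM), and Tnnt3 (5407 CPM) and Des (6034 CPM) in Dnm2 +/K562E mouse 4. Without control 4 the log2 fold change of Tmod1 was 0.71.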

How the results depend on the processing

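The directions of Tmod1, Tmod4, Nrap, Klhl40 and Klhl41 held under each alternative run, and their calls did too, apart from Nrap with Des left out of the fibre reference. Counts of genes at an adjusted p under 0.05 (higher and lower) were 4 and 3 among the 10 genes with library size alone (40.1% and 10.7% of all tested genes). They were 5 and 2 relative to fibre genes (46.4% and 7.12%), and 6 and 1 without Des in that reference (62.4% and 4.39%). With the fold threshold added, 1 gene was lower with library size alone (4.03% of all tested genes) and with upper-quartile factors (7.12%). The same count was found relative to fibre genes (2.98%), without Des (1.99%) and with at least 10 counts in every mouse (7.86%). Without Des, 4 were higher (36.1% of all tested genes). In the 4 lists of other thin filament genes, 13 were higher with library size alone (40.1% of all tested genes). Relative to fibre genes 15 were higher and 14 lower (46.4% and 7.12%), and without Des 19 and 7 (62.4% and 4.39%). With upper-quartile factors Lmod2 was -0.199 and lost its call. Relative to fibre genes it was 0.0716 and Neb 0.00262, and without Des Lmod2 was 0.218, Lmod3 0.0721 and Neb 0.149. These shifts follow from the scaling itself.

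With any 1 mouse left out, 3 of the 10 genes were higher and 4 to 5 lower, and with the fold threshold 2 and 1 to 2. Of all tested genes in these runs, 18.8% to 22.7% were higher and 18.5% to 22.4% lower. With the fold threshold, the shares were 11.2% to 13.9% and 7.24% to 8.52%. The fall to 1 came without control 3 and without Dnm2 +/K562E mouse 1 or 4, where Nrap was under the threshold. In the lists, 6 to 7 were higher and 22 to 23 lower, beside the same shares without the fold threshold. Tmod3 ranged from -0.0294 to 0.0624. The ratio differences ran from 1.85 to 2.01 (Tmod1 to Tmod4), 1.23 to 1.37 (Tmod3 to Tmod4), 0.464 to 0.601 (Klhl40 to Klhl41), -0.344 to -0.267 (Nrap to Neb), 0.373 to 0.605 (Nebl to Neb) and 0.0733 to 0.219 (Lmod2 to Lmod3), where the smallest exact permutation p of 3 against 4 mice is 0.0571. Same-numbered mice are different animals, with correlations of -0.213 to 0.00949 by title number and -0.167 to 0.178 by description number. With a replicate block Lmod2 was -0.23 (adjusted p = 0.0772 by title and 0.0704 by description number, edgeR quasi-likelihood test), and the block changed no other call of the 10 genes.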

Other observations

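Among the Dnm2 +/K562E mice, mouse 1 was the lowest and mouse 3 the highest for Lmod2, Neb, Nrap, Klhl40 and Klhl41, genes that differed from controls in both directions. The other 5 genes did not show this order: the lowest mouse was 2 for Tmod1 and Lmod3, 3 for Tmod3 and Nebl, and 4 for Tmod4. For Nrap these mice were at 1302 and 1881 CPM, and for Klhl41 at 646.6 and 737.6 CPM. Mouse 1 also had the highest summed level of 7 genes of developing and regenerating fibres (886.5 CPM) and of 7 macrophage genes (295.6 CPM), and mouse 3 had the lowest of the former (620.2 CPM). With 4 mice this pattern was not tested. The natriuretic peptide gene Nppb, one of the heart genes listed, had 0 reads in each control and 14 to 21 reads in each Dnm2 +/K562E mouse.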
